A study of Mus musculus with 4 samples.

Results

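The CCN family of secreted matricellular proteins was followed across the cells of the postnatal day 6 (P6) mouse tibia. Its members were taken as the rows of the deposited gene count matrix that carry the older symbols Cyr61 (now Ccn1), Ctgf (Ccn2), Nov (Ccn3), Wisp1 (Ccn4) and Wisp2 (Ccn5), which are 5 of 31053 rows, and all 5 had UMIs in this library. The cells came from the proximal and distal tibia, with 2 tibiae of 1 male mouse pooled. The 4 deposited entries share 1 count matrix and are taken here as runs of 1 library, which their labels do not state. The mouse carried Col10a1Cre, Rosa26-Tdtomato, Irx3 +/Δ and Irx5 +/- and is labelled an Irx3/5 heterozygous control. The paper writes the Irx3 genotype as +/ΔHC, its notation for deletion by this Cre, so the Irx3 deletion need not be in every cell. All cells described here come from this mouse, and no wild type cell was compared. Col10a1Cre drives recombination in hypertrophic chondrocytes (HCs), the cells that make type X collagen, so that they and their descendants transcribe tdTomato followed by the WPRE element. The cells were released by enzyme digestion and were not sorted by fluorescence. With 1 library there is no replicate of any value below, no test between classes was made, and each interval is a 95% interval that covers counting error only.

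CCN proteins share a signal peptide followed by modules that resemble insulin-like growth factor binding proteins, von Willebrand factor type C repeats and thrombospondin type 1 repeats, and all but Wisp2 end in a cysteine knot. They act in the extracellular matrix, where they bind integrins, heparan sulfate proteoglycans and growth factors. Cyr61 and Ctgf are the textbook targets of the Hippo pathway effectors YAP and TAZ, which bind DNA through TEAD factors, and both are also induced within minutes by serum and by mechanical load. Mice without Ctgf have misshapen growth plates, and Wisp1 is known as a Wnt-responsive gene of osteoblasts.

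In the GENCODE M21 annotation of GRCm38, Cyr61 lies on the minus strand of chromosome 3 (145646976 to 145649981) and Ctgf on the plus strand of chromosome 10 (24595442 to 24598683). Nov (54745702 to 54754039) and Wisp1 (66891320 to 66923201) both lie on the plus strand of chromosome 15, and Wisp2 lies on the plus strand of chromosome 2 (163820861 to 163833146). The longest annotated transcript of each member has 5 exons. Of the 5 members, 1 (Ccn1) was found in the RefSeq promoter table. A stretch of its promoter is shown because Cyr61 is the member with the most UMIs and because the sequence holds the short TEAD motif, whose letters are GGAATG, or CATTCC on the other strand. The match is in capitals, its first base lies 103 bases before the annotated start, and the stretch is read 5′ to 3′ on the gene's minus strand at chr3:145650071-145650100 of GRCm38.p6.
Cyr61 promoter: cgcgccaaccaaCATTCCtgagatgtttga
These letters occur once in the 250 bases before the Cyr61 start, and 12.6% of the 32851 RefSeq promoter windows of the same length hold them on either strand. The match is a description of the sequence and not a measured binding site.

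The matrix held 14181 barcodes with 500 to 85279 UMIs each, and 8256 cells with at least 1600 genes and limited mitochondrial and ribosomal UMIs were kept (median 13957.5 UMIs). Clustering without the CCN and cell cycle genes gave 28 clusters, of which 25 were named by marker genes into 17 classes and 3, holding 233 cells, stayed unnamed. The library is a 3′ UMI library, in which each captured transcript gives 1 count whatever its length. Levels are therefore given as UMIs of a gene per 1000000 UMIs of the class (CPM) and are set side by side between genes on this scale. How well the transcripts of each gene were captured was not measured, so differences between genes may include it. Some class names were close calls: among the 10 leading genes of the HC-like cluster, 2 were on cartilage lists (Col10a1 and Rbp4) and 2 on the monocyte list (F13a1 and Fn1), and the Gja4-rich endothelial-like cluster had 1 marker of its own and 1 of another class. The barcodes may also hold free RNA, which was not measured. Leukocyte-like cells, which are not known as a source of either protein, held Cyr61 at 26.4 CPM (24.7 to 28.2) and Ctgf at 22.4 CPM (20.8 to 24.1), and erythroid-like cells held 22.1 and 18.7 CPM. The ratio of Cyr61 to Ctgf UMIs was 1.18 in both of these classes, and 1.23 over all cells kept. Macrophage or osteoclast-like cells were little above these, with Cyr61 at 38.7 CPM and Ctgf at 25.7 CPM. Levels of this size are read as background below. The leukocyte-like class pools 8 clusters, and 1 of them stood apart. Its 29 cells, led by Ccl5 and Gzma, held Cyr61 at 202 CPM (149 to 269) and Ctgf at 43.0 CPM (20.6 to 79.1). They also held more of the cartilage collagen gene Col2a1, at 4984.5 CPM against 444 to 1946 CPM in the other leukocyte-like clusters. The source of their Cyr61 was not tested.

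Cyr61 and Ctgf made up most of the family everywhere, and the other 3 members each stood out in 1 or 2 classes. Over all cells kept, the 5 genes gave 135027 UMIs, of which 51.8% were Cyr61, 42.2% Ctgf, 4.12% Wisp1, 1.04% Wisp2 and 0.888% Nov. The cartilage classes other than HC-like cells took 96.8% to 99.2% of their family UMIs from Cyr61 and Ctgf. That share was 88.3% in HC-like, 87.5% in immature osteoblast-like, 64.8% in mature osteoblast-like and 58.2% in Mfap5-rich fibroblast-like cells. In mature osteoblast-like cells Wisp1 supplied 34.1% of the family UMIs, and in Mfap5-rich fibroblast-like cells Nov supplied 35.8%.

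**Figure D1:**
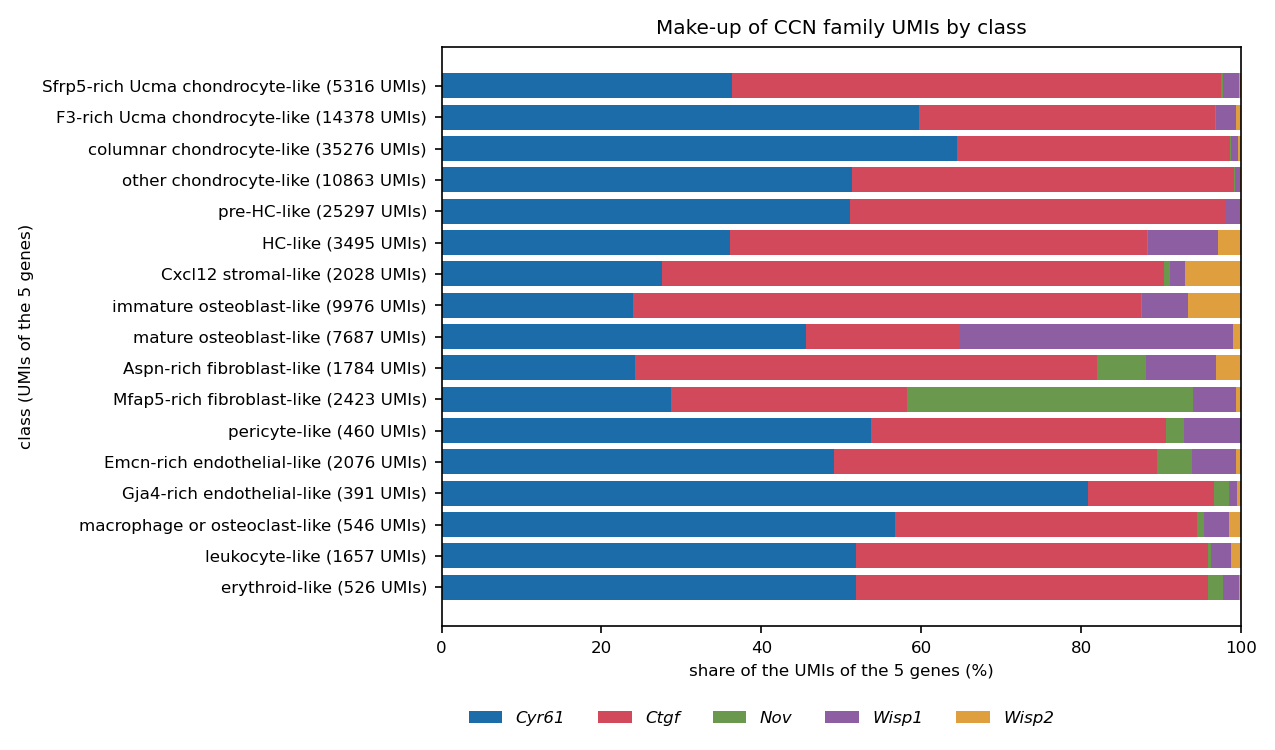
Share of the UMIs of the 5 CCN genes that each gene supplies (horizontal axis, %) in each of 17 classes (vertical axis, with the number of family UMIs). Cyr61 and Ctgf fill nearly the whole bar in cartilage, Wisp1 takes 34.1% in mature osteoblast-like cells and Nov 35.8% in Mfap5-rich fibroblast-like cells.

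The family's summed level was highest in pre-hypertrophic chondrocyte-like (pre-HC-like) cells, at 3008.5 CPM, and fell to 991 CPM in HC-like cells. It was 2127 CPM in F3-rich Ucma chondrocyte-like, 2045.5 CPM in columnar chondrocyte-like and 1888 CPM in Cxcl12 stromal-like cells. The summed levels of the leukocyte-like and erythroid-like classes were 50.9 and 42.6 CPM.

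**Figure D2:**
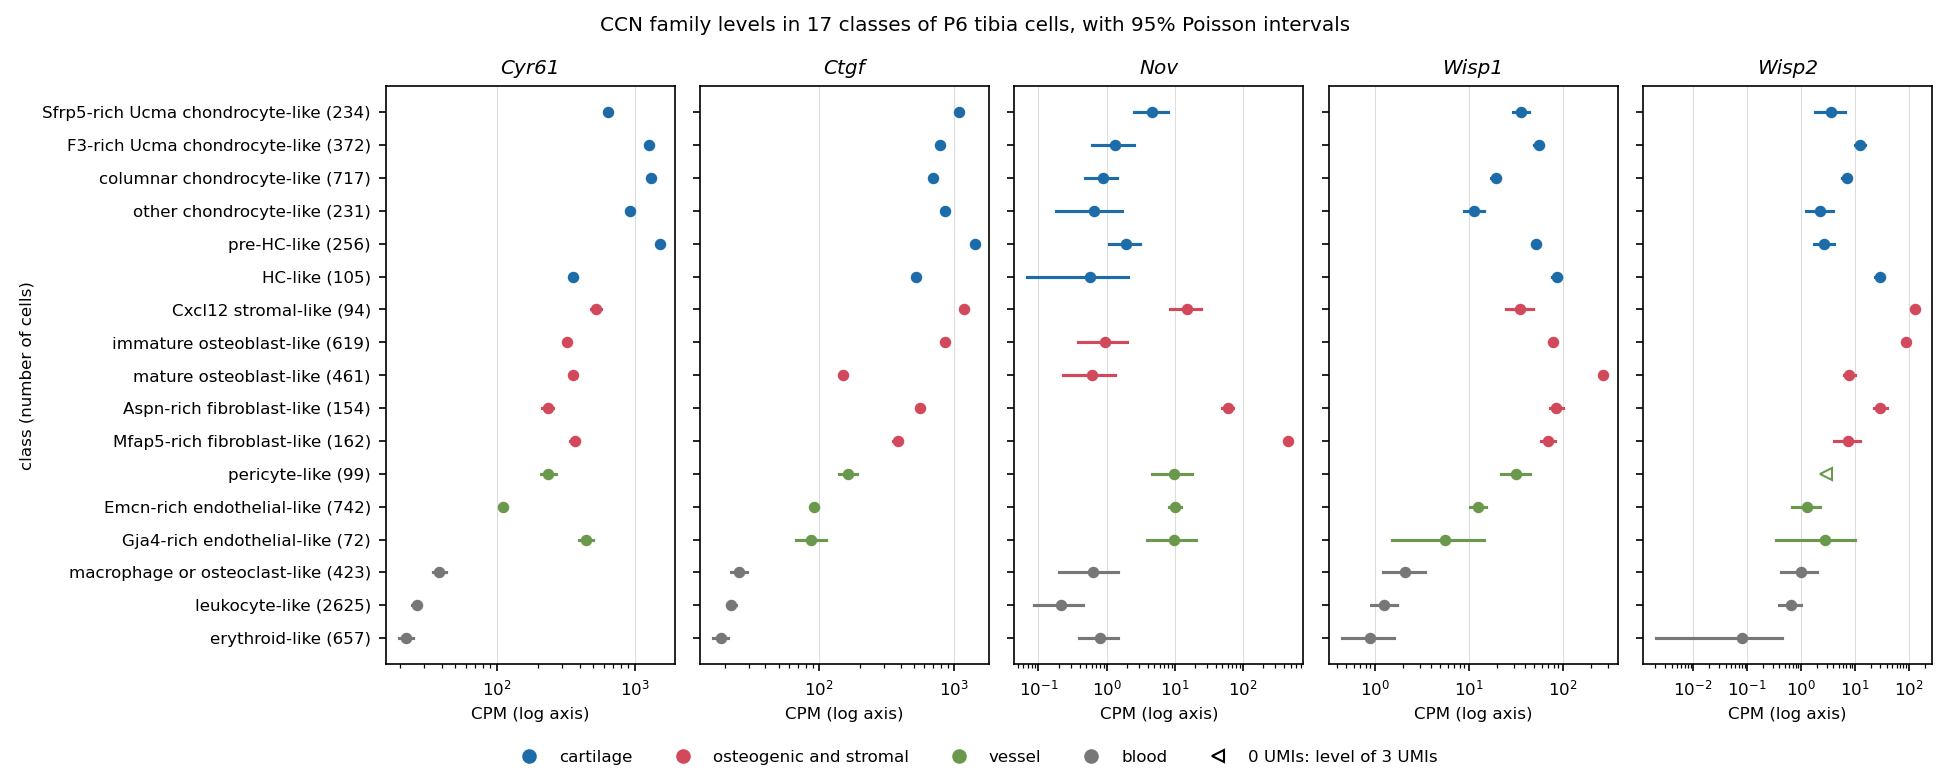
Level of each CCN gene (CPM, log axis, 1 panel a gene with its own range) in 17 classes with their cell numbers, coloured by cartilage, osteogenic and stromal, vessel and blood classes. Points are summed levels, bars 95% Poisson intervals, and the open triangle marks a class with 0 UMIs at the level of 3 UMIs. Cyr61 is highest in the pre-HC-like class at 1536 CPM, Nov in Mfap5-rich fibroblast-like cells at 461 CPM and Wisp1 in mature osteoblast-like cells at 268 CPM.

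Cyr61, which codes for an integrin-binding angiogenic matrix protein, was a gene of cartilage before hypertrophy. Its level was 1536 CPM (1509.7 to 1563) in pre-HC-like cells, 1319 CPM in columnar, 1269 CPM in F3-rich Ucma and 918 CPM in other chondrocyte-like cells. The cluster called other chondrocyte-like is led by 2610528A11Rik, Tnni2 and Espn, and the naming rule gave it no stage. It had 1 columnar marker among its 10 leading genes but 5 pre-hypertrophic markers among its 20 leading genes. Its Col10a1 level was 933 CPM, against 612 CPM in the pre-HC-like cluster. At Leiden resolution 0.6, 225 of its 231 cells fell in the pre-HC-like class. The Sfrp5-rich Ucma chondrocyte-like class lay lower at 646 CPM. Cxcl12 stromal-like cells followed with 521 CPM and Gja4-rich endothelial-like cells with 445 CPM. The next 4 classes lay close together: Mfap5-rich fibroblast-like 369 CPM, mature osteoblast-like 358 CPM, HC-like 358 CPM and immature osteoblast-like 325 CPM. In the Mfap5-rich class the highest 10% of cells held 65.9% of the Cyr61 and 70.2% of the Ctgf UMIs. Its Col2a1 level was 4219 CPM, against 499 CPM in the Aspn-rich class. The part of mixed barcodes or background RNA in its levels was not tested. From Cxcl12 stromal-like down to HC-like cells, the intervals of neighbouring classes overlapped, while those of HC-like (338.2 to 377.9) and immature osteoblast-like cells (311.8 to 338) met without overlap. Pericyte-like (238 CPM) and Aspn-rich fibroblast-like cells (235 CPM) did not differ beyond their intervals, and Emcn-rich endothelial-like cells were lowest of the non-blood classes at 112 CPM. Of all Cyr61 UMIs, 32.6% lay in columnar, 18.5% in pre-HC-like and 12.3% in F3-rich Ucma chondrocyte-like cells.

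Ctgf, a heparin-binding modulator of growth factor signalling, shared the pre-HC-like peak but was also a stromal and early osteoblast gene. It reached 1416 CPM (1390.4 to 1441) in pre-HC-like, 1185 CPM (1121 to 1252) in Cxcl12 stromal-like and 1086 CPM (1049 to 1124) in Sfrp5-rich Ucma chondrocyte-like cells. The intervals of the last pair overlapped at their ends. Immature osteoblast-like cells (859.6 CPM) and other chondrocyte-like cells (855 CPM) were alike within their intervals, and F3-rich Ucma (789 CPM) and columnar chondrocyte-like cells (699 CPM) came next. Lower values were found in Aspn-rich fibroblast-like (561 CPM), HC-like (518 CPM) and Mfap5-rich fibroblast-like cells (380.1 CPM). In pericyte-like (164 CPM) and mature osteoblast-like cells (151 CPM) the intervals overlapped, and the same held for Emcn-rich (91.9 CPM) and Gja4-rich (87.3 CPM) endothelial-like cells.

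Which cartilage class came first depended on where the clusters were drawn. Under 9 alternative settings, pre-HC-like cells had the highest Cyr61 level in 7 and the highest Ctgf level in 4. In the other 5 the Sfrp5-rich Ucma chondrocyte-like class held the highest Ctgf level, of up to 1644.5 CPM. The pre-HC-like class held between 256 and 826 cells, and in the largest 341 were columnar and 231 other chondrocyte-like cells of the main clustering.

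Cyr61 and Ctgf were high in overlapping but unequal sets of classes. Across the 17 classes their log2 levels had a Pearson r of 0.890, which includes the 3 blood classes at background, and over the 11 cartilage, osteogenic and stromal classes r was 0.515. Cells of each class share 1 library and their depth, and no p is given. Cyr61 UMIs per Ctgf UMI were 1.89 in columnar and 1.61 in F3-rich Ucma chondrocyte-like cells but 0.595 in Sfrp5-rich Ucma chondrocyte-like cells. The ratio was 0.378 in immature and 2.37 in mature osteoblast-like cells. The highest ratio of all classes was 5.10, in Gja4-rich endothelial-like cells.

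**Figure D3:**
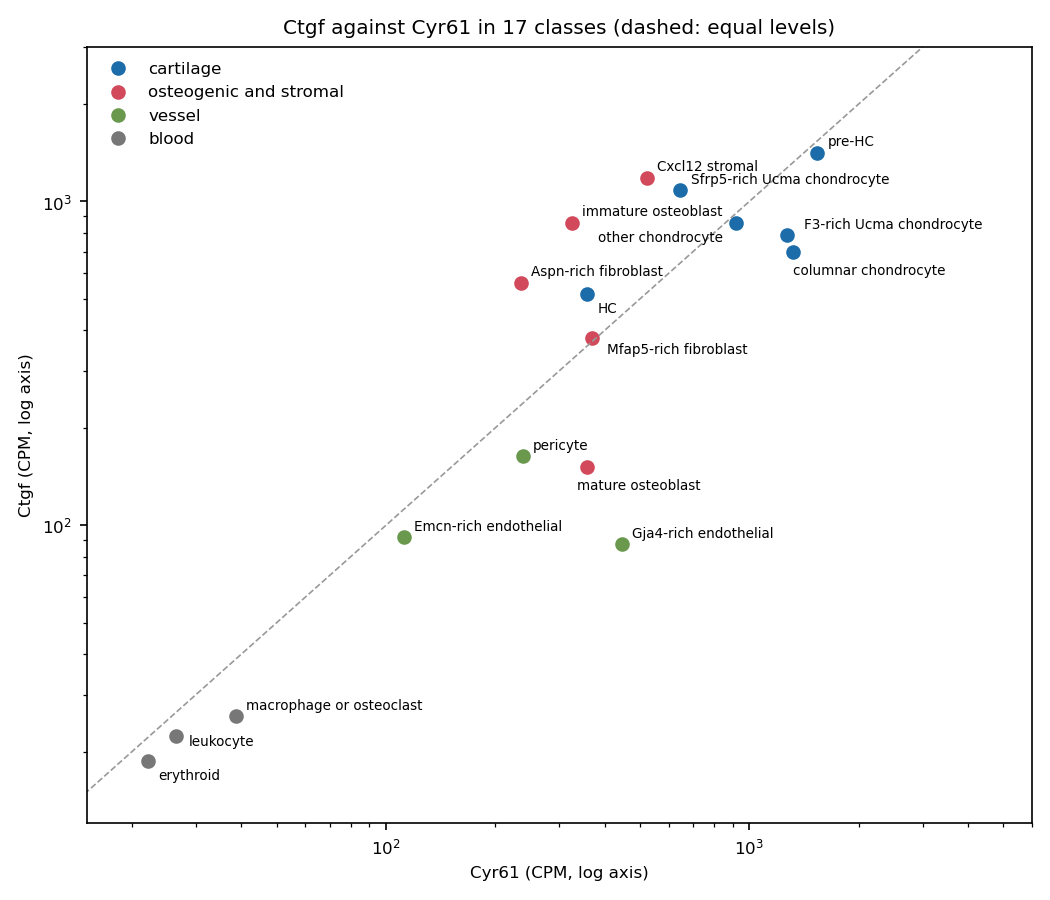
Ctgf level against Cyr61 level (both CPM, log axes) in 17 classes, 1 point a class, coloured by tissue compartment, with a dashed line of equal levels. Immature osteoblast-like cells lie above the line with 0.378 Cyr61 UMIs per Ctgf UMI, mature osteoblast-like cells below it with 2.37, and Gja4-rich endothelial-like cells farthest below it with 5.10.

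At the single-cell level, transcripts of both genes were widespread in cartilage. After each cell was thinned to 5000 UMIs, which left out shallower cells (0 to 3 in each of the cartilage classes), 96.1% (92.9 to 98.1) of pre-HC-like cells held a Cyr61 UMI and the same share held a Ctgf UMI. Both genes were seen together in 92.6% of the thinned pre-HC-like cells. The thinned shares in HC-like cells were 64.8% for Cyr61 and 67.6% for Ctgf, against 11.8% and 9.63% in leukocyte-like cells. Unthinned, 100% of pre-HC-like and 89.5% of HC-like cells held a Cyr61 UMI at median depths of 32331 and 33065 UMIs, against 23.8% of leukocyte-like cells at 10944 UMIs. The spread between cells was wide. In columnar chondrocyte-like cells the lowest 10% of cells reached at most 214 CPM of Cyr61, the median cell 966 CPM and the highest 10% at least 2839 CPM. In Sfrp5-rich Ucma chondrocyte-like cells the highest 10% of cells held 42.6% of the Ctgf UMIs, compared with 24.3% in pre-HC-like cells.

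From the pre-HC-like to the HC-like class, the step that precedes the change into bone-forming cells or cell death, the make-up of the family changed. Of the 5 members, 3 differed at least 2-fold, beside 29.1% of all 8022 genes tested (genes at 10 CPM or more in either class). Nov was under this level in both classes and could not be called. Here and below, such members are still counted among the 5. Cyr61 was 4.29-fold higher in pre-HC-like cells (4.05 to 4.55) and Ctgf 2.74-fold higher (2.60 to 2.87), while the median gene tested lay at a log2 ratio of -0.44, on the lower side. Over the 9 alternatives the Cyr61 ratio ranged from 2.999 to 5.31 and the Ctgf ratio from 2.01 to 2.96.

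Wisp1 and Wisp2 were higher in HC-like cells. For Wisp1 the log2 ratio of pre-HC-like over HC-like cells was -0.73, under 2-fold, beside -0.44 for the median gene tested. As a ratio of HC-like to pre-HC-like cells it was 1.66, and 1.77 to 3.13 in the 9 alternatives. Wisp1 was 86.5 CPM (77.1 to 96.8) in HC-like, 52.1 CPM in pre-HC-like and 19.4 CPM in columnar chondrocyte-like cells. Wisp2 was 28.9 CPM in HC-like, 2.74 CPM in pre-HC-like and 7.07 CPM in columnar cells, and the highest 10% of HC-like cells held 81.4% of its UMIs there. The Wisp2 value of HC-like cells rested on few cells that other settings moved: it was 3.55 CPM with at most 5% mitochondrial UMIs, 7.95 CPM with at least 2000 genes per cell, and its ratio to pre-HC-like cells ranged from 0.670 to 20.4. The Wisp1 ratio of HC-like to columnar cells was 4.45, and 3.08 to 5.19 in the 8 alternatives that held both classes.

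Between columnar and pre-HC-like cells, 2 of 5 members passed 2-fold, beside 8.34% of all genes tested: Ctgf was 2.02-fold and Wisp1 2.68-fold higher in pre-HC-like cells. Both calls depended on how the class was drawn: of the 8 alternatives with both classes, Ctgf reached 2-fold in 3 (1.40 to 2.15-fold) and Wisp1 in 3 (1.10 to 2.40-fold). Cyr61 was 1.16-fold higher in pre-HC-like cells (1.14 to 1.19), and 0.785 to 1.25-fold in these alternatives. Between both Ucma-rich classes, 1 member (Wisp2) passed 2-fold, beside 6.36% of all genes tested. It was 12.4 CPM in the F3-rich and 3.68 CPM in the Sfrp5-rich class, but reached 2-fold in 2 of 7 alternatives and turned with at most 5% mitochondrial UMIs, at 6.07 and 7.06 CPM. Cyr61 was 1.96-fold higher in the F3-rich class and Ctgf 1.38-fold higher in the Sfrp5-rich class. In the alternatives the Cyr61 ratio ranged from 1.06 to 2.27, and the Ctgf ratio of Sfrp5-rich to F3-rich cells turned in 2 of 7 and reached 0.673.

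Among columnar cells, those with UMIs of both Top2a and Mki67, the proliferation markers, differed in opposite directions for both main members. Cyr61 was 1461 CPM (1424 to 1498) in 136 such cells, 1298 CPM in 133 cells with 1 of the markers and 1268 CPM (1246 to 1290) in 448 cells with neither. Ctgf was 508 CPM (486 to 529.8), 869 CPM (836 to 902) and 725 CPM (708 to 742) in the same order, so it was highest in cells with 1 marker. The cells with both markers had a median of 29619.5 UMIs and those with neither 21861 UMIs. In immature osteoblast-like cells both genes were lower where both markers were present, with Cyr61 at 276 against 355 CPM in cells with neither and Ctgf at 634 against 1031 CPM. Cells with 1 marker lay between, at 319.7 and 757 CPM.

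In the osteoblast series the members parted more clearly. Of the 5 members, 3 differed at least 2-fold between immature and mature osteoblast-like cells, beside 20.9% of all 8455 genes tested. Ctgf was 859.6 CPM in immature against 151 CPM in mature cells, 5.68-fold apart (5.37 to 6.02). Wisp2 was 90.1 CPM and 7.97 CPM, 11.3-fold apart (8.93 to 14.5). Wisp1 took the opposite direction, at 78.3 CPM in immature against 268 CPM in mature cells, a ratio of 3.42 (3.13 to 3.75). Cyr61 was 1.10-fold higher in the mature class (1.05 to 1.16), and lower there in 1 of 6 alternatives. The median gene tested lay at a log2 ratio of 0.45 for immature over mature cells, on the side of the immature class. The 6 alternatives that kept both classes gave ratios of 5.64 to 8.56 for Ctgf, 12.2 to 29.3 for Wisp2 and 2.45 to 3.91 for Wisp1. Part of the mature class was mixed: Scrublet marked 8.46% of its barcodes as doublets, and its Ctgf level was 99.3 CPM when marked barcodes were left out before clustering and 87.8 CPM with at most 5% mitochondrial UMIs. In the finer clustering described below, 19 of its cells, 11 of them marked, were led by cartilage genes and held Col2a1 at 25485 CPM. They gave 585 of the 3502 Cyr61 UMIs of the class, at 829 CPM. The Cyr61 ratios of the mature class to immature and to HC-like cells include them.

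Mature osteoblast-like and HC-like cells held Cyr61 at nearly the same level, with an interval of the ratio from 0.938 to 1.07, but 3 of the 5 members differed at least 2-fold, beside 29.8% of all genes tested. Wisp1 was 3.099-fold higher in mature osteoblast-like cells, whereas Ctgf was 3.42-fold and Wisp2 3.63-fold higher in HC-like cells. The Wisp2 ratio ranged from 1.24 to 13.7 over the alternatives and was under 2 in 3 of 9. Between Cxcl12 stromal-like and immature osteoblast-like cells, 2 of 5 members passed 2-fold, beside 10.7% of all genes tested. The border between these classes was not sharp. The finer clustering described below put 120 immature and 84 stromal cells in the same cluster, led by Cxcl14, Adipoq, Lpl and Cxcl12. Wisp1 was 2.21-fold higher in immature cells, and reached 2-fold in 2 of the 4 alternatives that held both classes. Nov was 14.9 CPM in stromal cells, from 16 UMIs in 5.32% of 94 cells, against 0.950 CPM in immature cells. It was 5.44 to 6.54 CPM in 6 of the 7 alternatives that formed the stromal class, below the 10 CPM needed for a call. Cyr61, Ctgf and Wisp2 were 1.61-fold, 1.38-fold and 1.46-fold higher in stromal cells.

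Wisp1 was the member of the late osteoblast. Its level in mature osteoblast-like cells was 268 CPM (258 to 278.5), and no other class reached more than the 86.5 CPM of HC-like cells. Aspn-rich fibroblast-like (85.5 CPM), immature osteoblast-like (78.3 CPM) and Mfap5-rich fibroblast-like cells (70.2 CPM) followed, with overlapping intervals from HC-like cells down to these. F3-rich Ucma chondrocyte-like cells had 55.3 CPM, Sfrp5-rich 36.4 CPM, Cxcl12 stromal-like 35.4 CPM and pericyte-like cells 31.7 CPM. Macrophage or osteoclast-like, leukocyte-like and erythroid-like cells held 2.12, 1.26 and 0.892 CPM. After thinning, 64.2% (59.6 to 68.6) of mature osteoblast-like cells held a Wisp1 UMI, against 0.583% of leukocyte-like cells. Unthinned, the shares were 92.8% at a median of 18984 UMIs and 1.45% at 10944 UMIs. The mature class held 47.1% of all Wisp1 UMIs and was the highest class in 9 of 9 alternatives, at 268 to 298 CPM.

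Wisp2, the short member without the cysteine knot, was a gene of stromal and immature osteoblast-like cells. It was highest in Cxcl12 stromal-like cells, at 131 CPM (110.5 to 155), and next in immature osteoblast-like cells, at 90.1 CPM (83.4 to 97.2), which held 47.5% of all its UMIs. In the 2 alternatives that formed no Cxcl12 stromal-like class, immature osteoblast-like cells were highest, at 79.0 and 92.8 CPM. Both classes were formed in 4 alternatives, where Wisp2 was 1.33 to 2.14-fold higher in Cxcl12 stromal-like cells. The remaining alternatives formed no immature osteoblast-like class to compare. Aspn-rich fibroblast-like (29.9 CPM) and HC-like cells (28.9 CPM) had overlapping intervals. The value of the Aspn-rich class came from 9.09% of its cells and fell to 1.63 to 5.19 CPM in 6 alternatives that drew this class anew. Mature osteoblast-like, Mfap5-rich fibroblast-like and columnar cells lay between 7.07 and 7.97 CPM. No Wisp2 UMI was found in the 99 pericyte-like cells, where a count of 0 allows up to 2.89 CPM. In macrophage or osteoclast-like cells Wisp2 was 0.998 CPM, in leukocyte-like cells 0.645 CPM and in erythroid-like cells 0.0811 CPM. The level read as background was thus low for this gene. The Wisp2 transcript was unevenly shared: 31.8% of immature osteoblast-like cells held a UMI (22.6% thinned, against 0.125% of leukocyte-like cells), and the highest 10% of cells held 67.0% of its UMIs in this class.

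A finer clustering of the 1174 Cxcl12 stromal-like and osteoblast-like cells, again without CCN genes, gave 12 clusters, named here by their leading genes. The 5 clusters led by genes of chondrocytes, blood cells or endothelium, 4 of which held Scrublet-marked barcodes, are left out of what follows. Of the 204 cells led by Cxcl14, Adipoq, Lpl and Cxcl12, 84 came from the Cxcl12 stromal-like and 120 from the immature osteoblast-like class. This cluster had Cyr61 at 535 CPM, Ctgf at 1231 CPM and Wisp2 at 122 CPM. The 66 cells led by Mmp9, Cd55 and Ccl5 all came from the immature osteoblast-like class. They had the highest Wisp2 level of the 12, at 203 CPM (173 to 236), with Ctgf at 1273 CPM and Cyr61 at 183 CPM. High Wisp2 and Ctgf went with the lowest Cyr61 level of the 12 clusters there. The 296 cells led by Postn, which codes for periostin, and Vcan had Ctgf at 773 CPM and Wisp2 at 78.5 CPM. Mature clusters led by Bglap3 (184 cells) and by Ptgs2 (177 cells) had Wisp1 at 289 and 303 CPM and Wisp2 at 3.19 and 4.19 CPM.

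A small cluster of 17 cells led by Pdpn, Dmp1, Phex and Sost, markers of osteocytes, the matrix-embedded cells of bone, stood above these in both Wisp1 and Cyr61. Its Wisp1 level was 668 CPM (566 to 783), which is above that of each of the 17 classes. Its Cyr61 level was 1345 CPM (1198.5 to 1504.5), in the range of columnar and F3-rich Ucma chondrocyte-like cells, whereas the mature clusters led by Bglap3 and Ptgs2 had 402 and 217 CPM. Ctgf was 294.5 CPM (228 to 374) and Wisp2 4.40 CPM, the latter from 1 UMI. None of the 17 barcodes was marked by Scrublet, and their median depth was 13932 UMIs, below that of the Bglap3-led cluster (17720 UMIs). With 306 Cyr61 and 152 Wisp1 UMIs in 17 cells of 1 mouse, these levels describe a small number of cells.

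**Figure D4:**
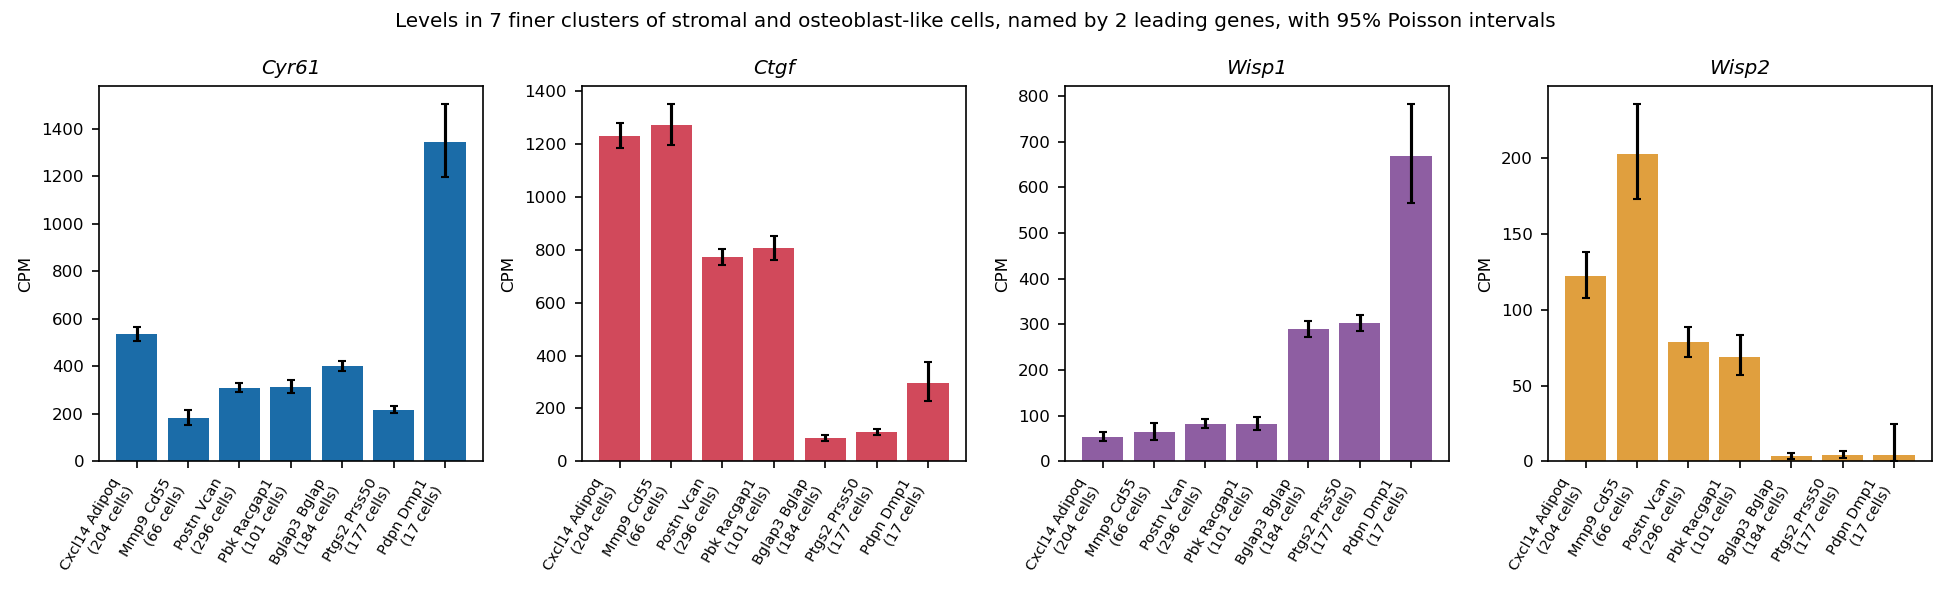
Levels (CPM) of Cyr61, Ctgf, Wisp1 and Wisp2 in 7 finer clusters of the stromal and osteoblast-like cells, named by 2 leading genes with their cell numbers. Bars are summed levels with 95% Poisson intervals. Wisp1 rises to 668 CPM and Cyr61 to 1345 CPM in the 17 cells led by Pdpn and Dmp1, and Wisp2 peaks at 203 CPM in the cluster led by Mmp9.

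HC-derived cells were taken as those with more than 14 WPRE UMIs. They made up 84.8% of HC-like, 34.3% of mature osteoblast-like, 20.2% of Cxcl12 stromal-like and 17.8% of immature osteoblast-like cells, against 0.0762% of leukocyte-like cells. The share was 8.08% in pericyte-like and 5.19% in Aspn-rich fibroblast-like cells. The paper set this limit to fit its own measured share of labelled HCs, so the HC-like share is no independent check of it. These cells were compared with the others of their class. By the paper's notation the Cre that turns on the reporter also deletes Irx3, so HC origin and the Irx3 deletion cannot be told apart here. Cells under the WPRE limit may still descend from HCs, since detection depends on depth.

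Of the 5 members, Wisp2 was the 1 with at least 10 CPM that passed 2-fold in immature osteoblast-like cells, beside 3.94% of all 8518 genes tested. It was 200.2 CPM (178 to 224) in 110 HC-derived cells and 61.4 CPM (55.2 to 68.1) in 509 other cells, a log2 ratio of 1.70 (1.48 to 1.93). Thinned to 5000 UMIs, 45.0% of HC-derived and 17.6% of other cells held a Wisp2 UMI. The groups had median depths of 11355.5 and 10453 UMIs. The log2 ratio was 1.78 without Scrublet-marked barcodes and 1.499 (1.22 to 1.77) when the 38 cells with a tdTomato UMI were set against the other 581. Ctgf was also higher in HC-derived cells, at 1130.3 against 789 CPM (log2 ratio 0.52), and Cyr61 was lower, at 238 against 347 CPM (log2 ratio -0.55, -0.71 to -0.39). Wisp1 was 68.9 against 80.7 CPM, with an interval of the log2 ratio from -0.55 to 0.08.

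The Wisp2 difference was not the same in all finer clusters that held immature osteoblast-like cells. In the Postn-led cluster, HC-derived cells (39) held 267.6 CPM and the other 257 cells 44.4 CPM, 6.02-fold apart, with a log2 interval of 2.22 to 2.96. In the cycling cluster led by Pbk the values were 123 CPM in 22 and 52.4 CPM in 79 cells (log2 1.23, 0.65 to 1.80). In the Mmp9-led cluster, where 54.5% of cells were HC-derived, both groups were high, at 219 and 179 CPM (log2 0.29, -0.18 to 0.77), and in the Cxcl14-led cluster they were at 140 and 119 CPM (log2 0.24, -0.23 to 0.68). Ctgf in the Postn-led cluster was 1311 CPM in HC-derived and 677 CPM in other cells, a ratio of 1.94, while the ratio was 0.937 in the Cxcl14-led, 1.15 in the Mmp9-led and 1.04 in the Pbk-led cluster. Cyr61 was lower in HC-derived cells of the Postn-led cluster, at 211 against 327 CPM, and of the Cxcl14-led cluster, at 249.7 against 593 CPM. In the Mmp9-led (194 against 167 CPM) and Pbk-led clusters (348 against 302 CPM) it was higher in HC-derived cells, with intervals of the ratio that spanned equal levels. Wisp1 was lower in HC-derived cells of the Cxcl14-led cluster, at 13.7 CPM from 5 UMIs against 62.5 CPM (log2 -2.19, -3.84 to -0.92). In the Postn-led, Mmp9-led and Pbk-led clusters its intervals spanned equal levels. How far the position of HC-derived cells within each cluster contributes was not tested.

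**Figure D5:**
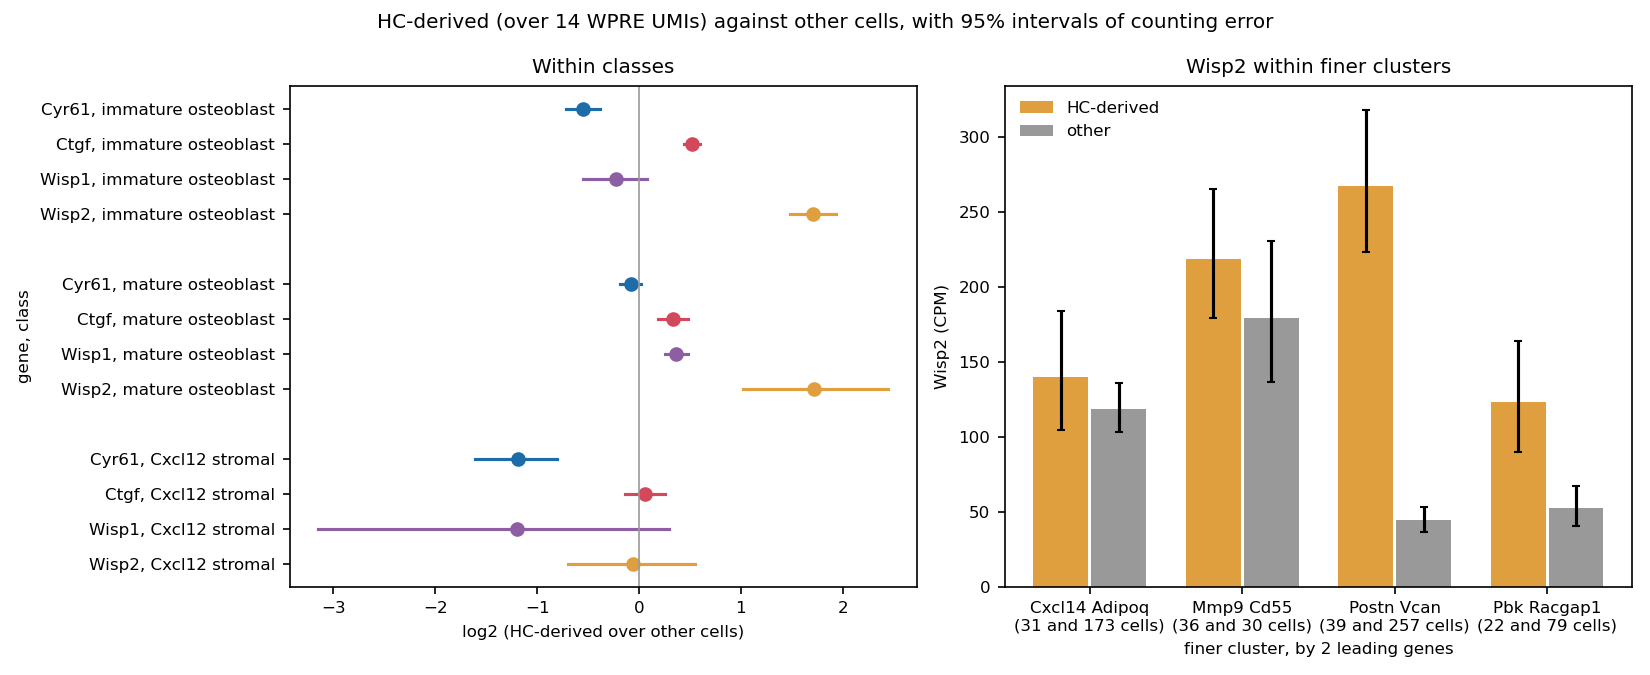
Left, log2 ratio of HC-derived (more than 14 WPRE UMIs) over other cells for 4 CCN genes in 3 classes; right, Wisp2 level (CPM) of HC-derived and other cells in 4 finer clusters, with cell numbers. Bars are 95% intervals of counting error. Wisp2 lies at 1.70 in immature osteoblast-like cells, and the gap is widest in the Postn-led cluster, at 267.6 against 44.4 CPM.

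In mature osteoblast-like cells Wisp2 was 14.3 CPM in 158 HC-derived and 4.35 CPM in 303 other cells, a log2 ratio of 1.72 (1.02 to 2.45), beside 1.82% of all 7461 genes tested past 2-fold. Without the Scrublet-marked barcodes the log2 ratio was 0.63 (-0.29 to 1.55). In the Ptgs2-led cluster, which held no marked barcode, Wisp2 was 6.75 CPM from 14 UMIs in HC-derived cells, with 1 UMI in the others. Wisp1 was 312 CPM in HC-derived and 243 CPM in other mature cells (log2 0.36, 0.25 to 0.48), and 0.32 without the marked barcodes. Ctgf was 174 against 138 CPM (log2 0.33), and the ratio turned to -0.10 when cells with a tdTomato UMI were set against the others. Cyr61 was 345 against 365 CPM, with an interval of -0.18 to 0.02, but by tdTomato it was 431 CPM in 69 cells against 343 CPM in the other 392 (log2 0.33, 0.21 to 0.45), higher in the marked cells. Within the Bglap3-led cluster Cyr61 was higher in HC-derived cells, at 724 CPM in 27 against 337 CPM in 157 cells. In the Ptgs2-led cluster it was lower, at 167 CPM in 97 against 286 CPM in 80 cells. In Cxcl12 stromal-like cells Cyr61 was 259 CPM in 19 HC-derived and 592 CPM in 75 other cells, whereas Wisp2 was 127 and 132 CPM, with an interval of the log2 ratio from -0.70 to 0.54. Wisp1 was 17.6 against 40.2 CPM, from 4 and 34 UMIs (log2 interval -3.15 to 0.29). Nov was 43.9 against 7.09 CPM, from 10 and 6 UMIs. The share of all genes past 2-fold is not given for this class. Of the HC-like class, 16 cells lay under the WPRE limit.

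Nov, known for its expression in muscle, tendon and adrenal tissue and as a Notch-binding member of the family, was nearly restricted to 1 fibroblast class. Of its 1199 UMIs, 867 (72.3%) lay in the 162 Mfap5-rich fibroblast-like cells, at 461 CPM (431 to 493). The Aspn-rich fibroblast-like class held 59.9 CPM (49.2 to 72.2), and 2 of 5 members (Nov and Wisp2) passed 2-fold between the fibroblast classes, beside 16.5% of all 9131 genes tested. Nov was 7.70-fold higher in the Mfap5-rich class (6.30 to 9.47), and 4.56 to 8.17-fold in the 7 alternatives that held both classes. The Wisp2 call, for a higher level in the Aspn-rich class (29.9 against 7.44 CPM), was kept in 3 of these 7. In the other 4 the direction turned and both levels were under 10 CPM. Where clustering merged them, the joint class had the highest level, at 308 and 312 CPM. Thinned to 5000 UMIs, 55.6% of Mfap5-rich and 19.3% of Aspn-rich cells held a Nov UMI, against 0.0417% of leukocyte-like cells. Cxcl12 stromal-like cells had 14.9 CPM from 16 UMIs in 5.32% of their cells. The endothelial-like and pericyte-like classes lay at 9.62 to 10.1 CPM with overlapping intervals, and every cartilage and osteoblast class was at 4.68 CPM or less, although 1 alternative put Sfrp5-rich Ucma chondrocyte-like cells at 12.2 CPM. Macrophage or osteoclast-like cells held 0.624 CPM.

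In vessels, Cyr61 set arterial from other endothelium. Gja4-rich endothelial-like cells, where Gja4 codes for an arterial connexin, held 445 CPM (397 to 497) and Emcn-rich cells 112 CPM (105 to 119), 3.97-fold apart (3.49 to 4.51), while Ctgf was 87.3 and 91.9 CPM. Of the 5 members, 2 passed 2-fold, beside 17.8% of all 8658 genes tested. The other was Wisp1, lower in Gja4-rich cells at 5.63 against 12.6 CPM, from 4 UMIs and with an interval of the log2 ratio from -3.07 to 0.23. Between pericyte-like and Emcn-rich endothelial-like cells, 2 of 5 passed 2-fold, beside 26.6% of all genes tested. Cyr61 was 2.12-fold higher in pericyte-like cells, with 1.83 to 2.48-fold in 8 alternatives, and Wisp1 2.51-fold higher. The cartilage gene Col2a1 was also higher there, at 3156 CPM against 1131 CPM in Emcn-rich cells. The part of background RNA in these ratios was not tested. The Cyr61 ratio of Gja4-rich to Emcn-rich cells was 3.73 to 4.22 in the 7 alternatives with both classes. In thinned cells, 56.5% of Gja4-rich and 32.1% of Emcn-rich cells held a Cyr61 UMI.

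Wisp3 (Ccn6), the remaining gene of the family on chromosome 10, had 1242 UMIs and was a cartilage gene here. It was 49.5 CPM in Sfrp5-rich Ucma, 41.4 CPM in F3-rich Ucma, 22.7 CPM in columnar, 21.2 CPM in pre-HC-like and 3.69 CPM in HC-like cells. No UMI was found in the 619 immature osteoblast-like cells, where a count of 0 allows up to 0.407 CPM.

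The comparison took 6298 genes that reached 50 CPM in some class and had at least 100 UMIs over all cells kept. The genes most like each member were ranked among these by Pearson r of log2 levels over the 17 classes. For Cyr61 they were Fkbp9 (r 0.952), Hmgcs1 of cholesterol synthesis (0.950) and Chsy1, a chondroitin sulfate synthase (0.948). For Ctgf they were Plagl1, an imprinted zinc finger gene (0.957), Emilin1 of elastic fibres (0.951) and Pigp (0.946). Nov was followed by C1qtnf2 (0.937), Mfap5 (0.923) and the tendon gene Tnmd (0.890). Wisp1 was followed by Gxylt2 (0.908), Gpx8 (0.908) and Creb3l1, a transcription factor of bone matrix secretion (0.907), and Wisp2 by the potassium channel gene Kcnk2 (0.905), Cldn10 (0.884) and Fgfr2 (0.859). These values are descriptions over classes of 1 library.

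The genes around the family were described by where each was highest among the 17 classes. Over all 11760 genes at 10 CPM or more in some class, 20.4% were highest in a cartilage, 21.5% in an osteogenic or stromal, 27.4% in a vessel and 30.7% in a blood class. Of 35 Hippo and TEAD genes, 33 reached 10 CPM, and 3 of these were highest in cartilage, 11 in osteogenic or stromal, 15 in vessel and 4 in blood classes. The highest of them were Gadd45b (786 CPM in Cxcl12 stromal-like), Igfbp3 (774 CPM in Gja4-rich endothelial-like), Wwtr1, which codes for TAZ (399.9 CPM in Gja4-rich endothelial-like), and Axl (266 CPM in Mfap5-rich fibroblast-like cells). Their summed level was 1727 CPM in pre-HC-like and 3334 CPM in Gja4-rich endothelial-like cells. The list mixes pathway components and target genes, so its RNA sum is no measure of pathway activity. The part of this pathway in the Cyr61 and Ctgf levels was not tested.

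Of 17 receptor genes at this level (of 18 listed), 1 was highest in cartilage, 5 in osteogenic or stromal, 6 in vessel and 5 in blood classes. The 1 in cartilage was Sdc4, a heparan sulfate proteoglycan that binds CCN proteins, at 1537 CPM in pre-HC-like cells. It was 1454 CPM in F3-rich Ucma and 1204 CPM in columnar chondrocyte-like cells. Cyr61 and Ctgf were also highest in the pre-HC-like class of the main clustering, which held for Ctgf in 4 of 9 alternatives. Itgb1 (950.4 CPM), Notch1 (480.1 CPM) and Tgfbr2 (384 CPM) were highest in Gja4-rich endothelial-like cells. Of 10 Wnt response genes at this level (of 15), 2 were highest in cartilage, 7 in osteogenic or stromal and 1 in a vessel class, led by Wif1 (797 CPM) and Tnfrsf19 (77.6 CPM) in immature osteoblast-like, Dkk2 (221 CPM) in Gja4-rich endothelial-like and Lef1 (79.6 CPM) in Sfrp5-rich Ucma chondrocyte-like cells. Of 13 TGF-beta response genes, 3 were highest in cartilage, 5 in osteogenic or stromal and 5 in vessel classes, with Postn (2257 CPM) in Aspn-rich fibroblast-like, Tagln (1747 CPM) in pericyte-like, and Tgfbi (895 CPM) and Pmepa1 (798 CPM) in F3-rich Ucma chondrocyte-like cells.

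Immediate early genes, which digestion of tissue can induce, were present in every non-blood class. Of 20 such genes, 4 were highest in cartilage, 6 in osteogenic or stromal and 10 in vessel classes, with Junb (2357 CPM) in Gja4-rich endothelial-like, Fos (2194 CPM) and Egr1 (1706 CPM) in Sfrp5-rich Ucma chondrocyte-like, and Ier3 (1534 CPM) in Emcn-rich endothelial-like cells. Their summed level was 11780.0 CPM in Sfrp5-rich Ucma, 8886 CPM in F3-rich Ucma, 7827 CPM in pre-HC-like, 7332 CPM in columnar and 5767 CPM in HC-like cells. It was 6891 CPM in immature osteoblast-like cells, 8466 CPM in mature ones, 8429 CPM in Emcn-rich and 14603 CPM in Gja4-rich endothelial-like cells, and 2549 CPM in leukocyte-like cells. Fos and Egr1 had an r of 0.907 and 0.919 with Cyr61 over the 17 classes. These were the highest values of the list and were chosen after they were seen. Junb and Ier3 had an r of 0.419 and 0.275, and Nr4a1 one of -0.054. Each r includes the blood classes, where Cyr61 was at background. The sum was thus lower in pre-HC-like than in Sfrp5-rich cells, where Cyr61 was 1536 and 646 CPM, and higher in Gja4-rich than in Emcn-rich cells, as Cyr61 was. The part of this response in the Cyr61 and Ctgf levels was not tested.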

How the data were processed

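Single-cell RNA sequencing of 1 P6 mouse tibia library was analysed from deposited UMI counts, which the authors produced with Cell Ranger 3.1.0 on mm10 extended by tdTomato and WPRE. The sources used here name no annotation release. A second deposited count matrix of exogenous sequences gave WPRE and tdTomato counts by barcode. The submitters' processing notes also name Seurat 3. A single gene matrix covers the 4 deposited entries, so they were counted as 1 sample. The members, lists and classes were chosen with earlier results of these data known.

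Barcodes were kept with 1600 or more genes, 10% or less mitochondrial and 50% or less ribosomal protein UMIs. The limit of 14 WPRE UMIs is that of the study's methods. Scanpy 1.11.5 (Python 3.11.15) scaled counts to 10000 per cell, took the logarithm, 2000 variable genes without 6 CCN and 40 cell cycle genes, 30 principal components and 20 neighbours, and ran Leiden clustering at resolution 1 with seed 1. Clusters were named from the 10 leading genes by ratio to all other cells (10 CPM added) against 27 marker lists, with at least 3 markers at 10 CPM. The collagen (5000 CPM of Col2a1) and Ptprc (50 CPM) rules and the splits by Sfrp5 or F3, Mfap5 or Aspn and Emcn or Gja4 were set after the clusters were seen. Scrublet, with an expected rate of 10%, marked 588 barcodes (4.15%). These were kept, and leaving them out was an alternative.

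Levels are summed UMIs per 1000000 with exact Poisson 95% intervals, ratios have exact conditional binomial intervals, and shares exact Clopper-Pearson intervals. A count of 0 was given a limit of 3 UMIs. For the share of genes past 2-fold, genes at 10 CPM or more in either group were taken and 1 CPM was added to both. Members under 10 CPM in both groups could not be called but are counted among the 5. Ratios of the members themselves had nothing added. The finer clustering used resolution 0.6. The text or the plot of levels gives the 5 members in every named class, and the text names Wisp3 once, the 3 most similar genes of each member, and up to 4 genes of each list with the highest level. Ratio and similarity steps were tested on simulated data. Promoter sequence is from RefSeq. Alternatives changed the limits on cells, the resolution, the variable genes, the marked barcodes and the averaging.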

Additional observations from a re-analysis of the deposited data

Results flagged for a closer look

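The 5925 barcodes left out by the limits on cells also held CCN UMIs above the limit that a count of 0 allows there (0.143 CPM). Cyr61 was 238 CPM, Ctgf 188 CPM, Wisp1 16.2 CPM, Nov 5.23 CPM and Wisp2 5.19 CPM in them. They mix barcodes with few genes and barcodes rich in mitochondrial or ribosomal UMIs, and belong to no class.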

How the results depend on the processing

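All of these values come from 1 library of 1 mouse, so no result was checked between animals, and counting error does not include it. The alternative with CCN and cell cycle genes among the variable genes was chosen after seeing the data. The Cyr61 level of pre-HC-like cells (1536 CPM) moved to 1587 CPM with at most 5% mitochondrial UMIs, 1433 CPM with at most 20%, 1367 CPM with at least 2000 genes per cell, 1270.4 CPM without Scrublet-marked barcodes, 1073 CPM at Leiden resolution 0.6, 1494.5 CPM at resolution 1.5, 1295 CPM with more variable genes, 1616 CPM as a mean over cells and 1276 CPM with the CCN and cell cycle genes. The Ctgf level of the same class (1416 CPM) became 1070.3, 1117, 1039, 1128, 1371, 1102, 1461 and 1045 CPM in that order, leaving out the limit of 20%, under which it moved by less than its interval. The Wisp1 level of mature osteoblast-like cells (268 CPM) moved to 283 CPM with at most 20% mitochondrial UMIs, 298 CPM without Scrublet-marked barcodes, 280.4 and 294 CPM at resolutions 0.6 and 1.5, 279 CPM as a mean over cells and 281 CPM with the CCN and cell cycle genes. The highest levels of Nov and Wisp2 moved by less than their intervals wherever their class was formed, which it was in 7 of 9 alternatives each. Of the other 689 alternative values, 419 moved by less than their interval, 269 by more, and 1 ratio whose interval had excluded equal levels turned: the log2 ratio of Ctgf between HC-derived and other mature osteoblast-like cells was -0.10 by tdTomato UMIs and 0.33 by WPRE. Cyr61 in the same cells went from -0.08 to 0.33. These counts do not cover HC-like cells, where Ctgf went from 0.66 by WPRE to -0.54 by tdTomato and Wisp2 also turned, to -1.56, nor the ratios between classes, whose ranges stand beside them and of which some turned. Of 384 alternative class levels whose reported value was at least 20 CPM, 343 were within 1.5 times it. The causes were not tested. No paired analysis was possible because there is 1 library, and for the same reason no replicate could be left out.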
